A study of Mus musculus with 6 samples.

Results

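Ezrin, radixin and moesin (the ERM proteins), their tumour suppressor relative merlin and the scaffolds NHERF1 and PALS1, together with the microvillus protein villin, were followed in the lining of the mouse stomach after deletion of Lasp1. All probes annotated to the 7 genes Ezr, Rdx, Msn, Nf2, Slc9a3r1, Vil1 and Pals1 (Mpp5 in the platform annotation) were taken. They were 10 of the 45281 probes on the array and covered 6 of the 7 genes: no probe used here was annotated to Ezr, so ezrin mRNA was not analysed here. Total RNA came from the fundic gastric mucosa of 3 Lasp1 knockout and 3 wild type samples, all from C57Bl/6Ncr mice aged 3 months, and each sample was hybridised as biotin-labelled cRNA to 1 Illumina bead array. The labels name no other allele or treatment, do not describe the deleted part of Lasp1, and leave it unsaid whether the arrays came from different mice, so p-values measure only the spread between these samples.

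ERM proteins hold the plasma membrane to the actin filaments beneath it. Their amino-terminal FERM domain binds membrane proteins, directly or through the PDZ scaffold NHERF1, and their carboxy-terminal tail binds actin once phosphorylation has opened the molecule. In the acid-secreting parietal cell ezrin is the ERM protein of the secretory canaliculus, a deep apical infolding lined with microvilli, and Lasp1 is an actin-binding protein enriched in the same cells. Radixin is best known from hepatocyte canaliculi and inner ear stereocilia, and moesin from leukocytes and endothelium.

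The arrays differed in ways that touch these genes. The deposited intensities have a median of 1000 on every array, and the brightest probe of a Y-linked gene, taken here as the background of its array, read 1020 to 1202 on the knockout arrays and 1086 to 1212 on the wild type arrays. The parietal cell markers fixed for the check (13 genes, all but Kcnq1 above that background on every array) summed to 1910735 to 2114815 in knockout and 1854332 to 2033595 in wild type mucosa. The brightest were Atp4a and Atp4b (438485 to 539091), Cblif (318384 to 362449) and Clic6 (269677 to 319738). Cblif, the intrinsic factor gene, is expressed in chief cells in the mouse, so the sum is not of parietal cells alone. Pit cell markers (6 genes, all above background on every array) summed to 2199843 to 2386681 in knockout and 1912065 to 2180450 in wild type mucosa, without overlap. Of the 6 genes, 2 (Gkn1 and Muc1) had an unadjusted limma p under 0.05, against 2.17% of named genes. The same 2 had knockout arrays all above wild type arrays, against 6.66% of named genes, and the groups overlapped for the rest. Markers of intestinal absorptive epithelium (12 genes, 7 of them above background on no array) summed to 341270 to 399852 in knockout and 292624 to 337273 in wild type mucosa, also without overlap. Most of each sum was Apoa1 alone, which read 307784, 365867 and 348670 in knockout and 299213, 277953 and 260985 in wild type mucosa. Of the 5 genes bright enough to be tested, 4 had a log2 difference above 0, and Alpi was at -0.36 (SE 0.37). The part of these cell types in the Slc9a3r1 and Pals1 values below was not tested. Wild type replicate 3 carried pancreatic acinar transcripts (14 genes summed to 8040120 there and to 788158 to 1181592 on the other arrays), and it gave the lowest value of the 6 arrays for 67.3% of 11868 named genes. Clps, at 513831 to 635559 on all arrays, made up most of the lower sums. Knockout replicate 3 also carried some of these transcripts: Cela2a read 58913 there, 647587 on wild type replicate 3 and 1288 to 2400 elsewhere. Not all were raised there, as Cela1 read 30693 on it and 23883 to 59570 on the arrays other than wild type replicate 3. Squamous markers (17 genes) summed to 1241082 on knockout replicate 1 and 702691 on wild type replicate 2, and to 47459 or less elsewhere. Smooth muscle markers (10 genes, 7 of them above background on every array and 2 on none) summed to 298138 on knockout replicate 1 and to 48807 to 130568 elsewhere. Arrays numbered 1 to 3 in their titles (knockout replicate 1 and wild type replicates 1 and 2) and those numbered 4 to 6 are treated as separate sets, although the labels do not say what the number means. Lasp1 itself, on its brightest probe ILMN_2879746, read 88521, 111002 and 89823 in knockout and 270957, 275068 and 177315 in wild type mucosa, lower on every knockout array, with a log2 difference of -1.30 (SE 0.21, limma adjusted p = 0.994). Its unadjusted limma p was 0.000412. Probe ILMN_2879745 was at -1.59 (SE 0.34, limma adjusted p = 0.994), also lower on every knockout array. Probe ILMN_2596851 was at -0.21 (SE 0.19, limma adjusted p = 0.994) with overlapping groups, and was above background on 1 wild type array only. Where these Lasp1 probes lie relative to the deleted part is not known here.

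The promoters of villin and NHERF1 are shown because these genes had the members' probes farthest above background and are the members for which leaving out wild type replicate 3 moved the difference most. Each window holds 250 bases before to 50 bases after the RefSeq transcription start in GRCm38.p6, 5′ to 3′ on the strand of the gene, and capitals mark matches on either strand to the CArG box, which is bound by the actin-regulated serum response factor, or to CCAAT. The windows are Vil1 at chr1:74409134-74409433 (plus strand) and Slc9a3r1 at chr11:115163091-115163390 (plus strand).
Vil1: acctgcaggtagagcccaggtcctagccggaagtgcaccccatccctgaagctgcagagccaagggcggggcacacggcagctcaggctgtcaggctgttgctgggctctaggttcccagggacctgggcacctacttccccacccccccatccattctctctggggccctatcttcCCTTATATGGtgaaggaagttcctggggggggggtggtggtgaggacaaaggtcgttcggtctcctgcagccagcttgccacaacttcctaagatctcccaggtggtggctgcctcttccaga
Slc9a3r1: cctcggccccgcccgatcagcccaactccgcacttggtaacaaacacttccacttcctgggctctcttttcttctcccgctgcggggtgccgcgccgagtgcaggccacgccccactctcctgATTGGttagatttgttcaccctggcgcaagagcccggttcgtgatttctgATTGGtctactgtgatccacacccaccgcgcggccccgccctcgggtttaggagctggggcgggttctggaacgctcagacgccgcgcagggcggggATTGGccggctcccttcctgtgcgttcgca
The villin window holds 1 CArG box, a motif found in 1.63% of 32851 such mouse windows, and no CCAAT. The NHERF1 window holds 3 CCAAT matches, a motif present in 37.4% of windows, and no CArG box. No CArG box was found in the windows listed for Ezr, Rdx, Msn or Nf2, and the table used has no window for Pals1. The NHERF1 window lies 17.4 Mb from that of Lasp1 on chromosome 11.

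None of the members passed the test between genotypes. Of the 10 probes, 6 (5 genes) were bright enough on average to enter the fit, and 0 of these 6 passed limma at an adjusted p under 0.05, against 0.00883% (2 of 22640) of all probes tested. At an unadjusted p under 0.05 there was 1, the Pals1 probe, higher in the knockout, as were 1.63% of all tested probes. The groups did not overlap for 2 of the 6, Slc9a3r1 and Pals1, both higher in the knockout, where 6.17% of all tested probes had knockout arrays all above wild type arrays and 7.19% had groups that did not overlap in either direction. After quantile normalization none of the 6 had knockout arrays all above wild type arrays, against 3.03% of all probes. The median log2 difference over the 5 genes was 0.29, beside 0.10 over all tested probes, and 0.11 beside 0.0036 after quantile normalization. It was 0.06 without wild type replicate 3 and 0.04 without knockout replicate 2, beside -0.0039 over all probes without wild type replicate 3.

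**Figure D1:**
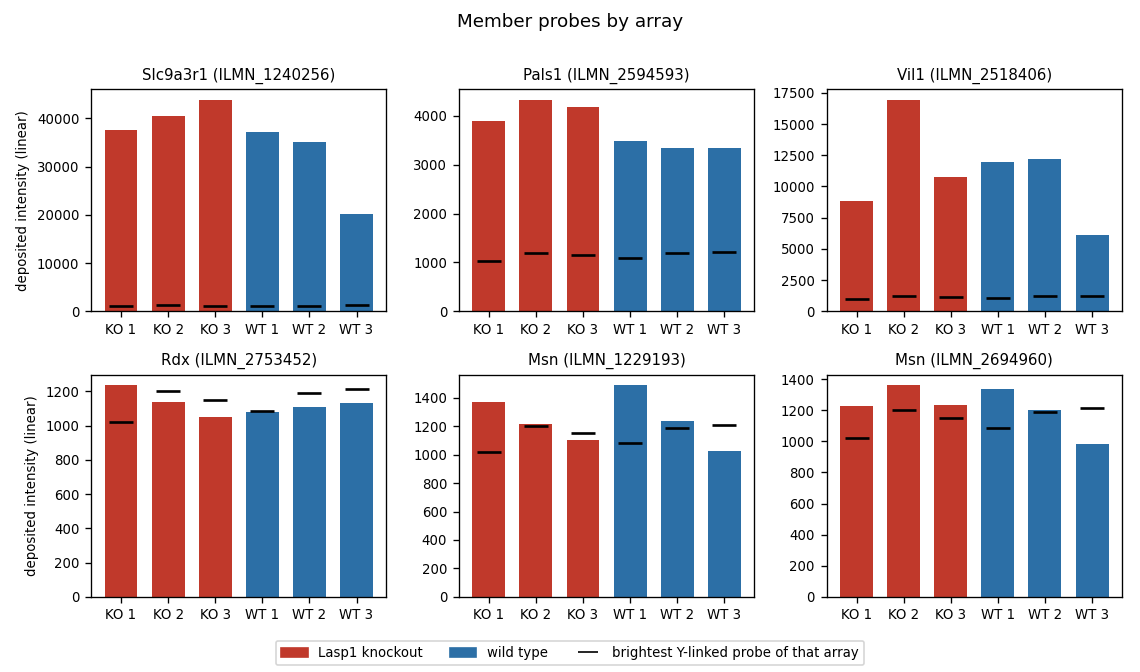
Deposited linear intensity (y axis, from 0) of the 6 tested member probes on the 3 Lasp1 knockout (KO) and 3 wild type (WT) arrays; black dashes mark the brightest Y-linked probe of each array. Slc9a3r1 and Vil1 were lowest on WT replicate 3 (20219 and 6114), Pals1 separated the groups, and Rdx and Msn lay around background.

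Among the scaffolds, NHERF1 (Slc9a3r1) couples ERM proteins to apical transporters and receptors through its PDZ domains. Its single probe, ILMN_1240256, read 37644, 40508 and 43805 in knockout mucosa and 37260, 35183 and 20219 in wild type mucosa. The groups did not overlap, but the lowest knockout and the highest wild type value were nearly equal, and wild type replicate 3 stood well below the other 5 arrays. The means were 40652 ± 3083 in knockout and 30887 ± 9297 in wild type (SD, n = 3 each). The log2 difference was 0.44 (SE 0.24, 95% interval -0.13 to 1.02, limma adjusted p = 0.994). The exact two-sided permutation p was 0.1, the smallest that 3 against 3 arrays can give. Without wild type replicate 3 the difference was 0.16 (SE 0.12), and with the squamous and pancreatic marker scores as covariates it was 0.27 (SE 0.14). Among the arrays with title numbers 1 to 3 it was 0.06 and among those with 4 to 6, where wild type replicate 3 is the only wild type array, it was 1.06. With these sets as a block it was 0.56 (limma adjusted p = 0.399). After quantile normalization it was 0.27 with overlapping groups.

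PALS1 (Pals1) is the membrane-associated guanylate kinase that joins Crumbs to PATJ in the apical polarity complex. Its brighter probe, ILMN_2594593, read 3906, 4327 and 4177 in knockout and 3481, 3344 and 3349 in wild type mucosa. Every knockout array was above every wild type array, the 3 wild type values lay close together, and wild type replicate 3 did not stand apart. The means were 4137 ± 213 in knockout and 3391 ± 77.8 in wild type (SD, n = 3 each), a 1.22-fold difference (log2 0.29, SE 0.11, 95% interval 0.03 to 0.54, limma adjusted p = 0.994, exact permutation p = 0.1). It was 0.20 in the first title-number set, 0.34 in the second, 0.27 (limma adjusted p = 0.399) with the sets as a block, and 0.28 without wild type replicate 3. It was 0.13, with overlapping groups, after quantile normalization, and with array weights it passed (log2 0.33, adjusted p = 0.0341), in a fit where wild type replicate 2 had a weight of 38.8 and no other array more than 1.6. The other Pals1 probe, ILMN_2590811, read 862 to 951 in knockout and 809 to 926 in wild type mucosa and was above background on no array.

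Villin (Vil1) bundles and, at high calcium, severs the actin filaments of microvilli. Its probe, ILMN_2518406, read 8852, 16929 and 10788 in knockout and 11945, 12233 and 6114 in wild type mucosa. Knockout replicate 2 was highest, wild type replicate 3 and knockout replicate 1 were lowest, and the groups overlapped. The means were 12189 ± 4217 in knockout and 10097 ± 3452 in wild type (SD, n = 3 each). The log2 difference was 0.29 (SE 0.34, 95% interval -0.53 to 1.10, limma adjusted p = 0.994). The difference was smaller than the spread between arrays, and it turned to -0.04 without wild type replicate 3. Leaving out any other single array gave 0.02 (without knockout replicate 2) to 0.49 (without knockout replicate 1). Wild type replicate 3 had the highest pancreatic sum, and knockout replicate 1 had the highest squamous and smooth muscle sums. The second highest squamous sum and the second highest Vil1 value were on wild type replicate 2. With the squamous and pancreatic scores as covariates the difference was 0.03 (SE 0.17), and without both squamous arrays it was 0.66 (SE 0.41). The part of these transcripts in the villin values was not tested. It was -0.45 in the first title-number set and 1.14 in the second, each of which holds 1 array of one genotype, and 0.35 with the sets as a block.

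**Figure D2:**
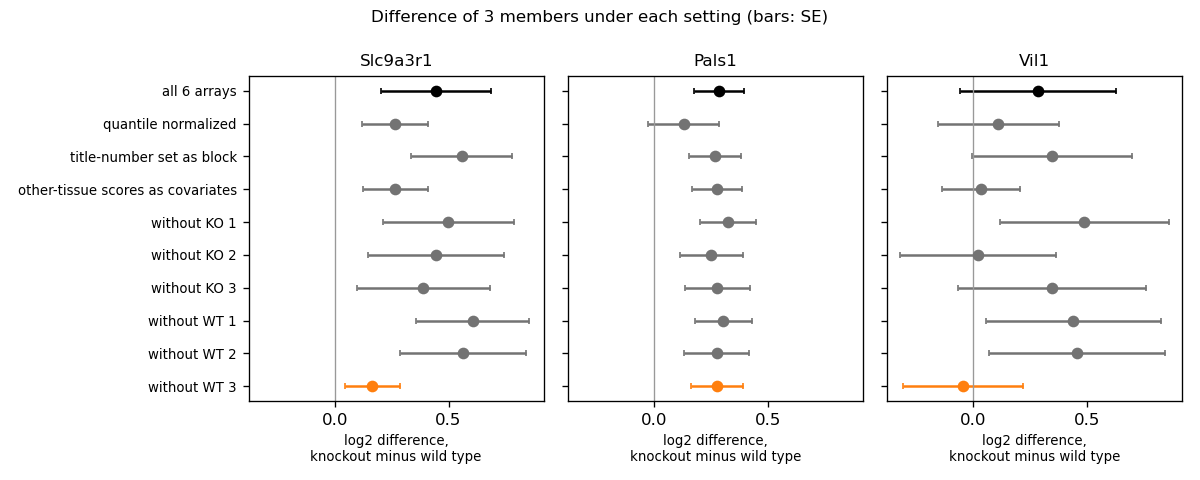
Log2 difference (x axis, knockout minus wild type, bars ± SE) of Slc9a3r1, Pals1 and Vil1 under each setting named at the left; orange marks the fit without wild type replicate 3. Pals1 stayed between 0.25 and 0.33 whichever array was left out, whereas Slc9a3r1 was 0.16 and Vil1 -0.04 without wild type replicate 3.

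Of the ERM genes on the array, radixin (Rdx) lay around background. Its single probe, ILMN_2753452, read 1235, 1140 and 1052 in knockout and 1079, 1110 and 1133 in wild type mucosa, and it exceeded the brightest Y-linked probe on knockout replicate 1 alone. The groups overlapped, with a log2 difference of 0.04 (SE 0.12, 95% interval -0.23 to 0.32, limma adjusted p = 0.994). Because background was not subtracted, this interval bounds the probe's brightness and not the change of the transcript.

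Moesin (Msn) had 3 probes, all dim. ILMN_1229193 read 1369, 1214 and 1102 in knockout and 1488, 1241 and 1026 in wild type mucosa (log2 -0.02, SE 0.17, limma adjusted p = 0.996). ILMN_2694960 read 1226, 1360 and 1235 in knockout and 1336, 1199 and 985 in wild type mucosa (log2 0.13, SE 0.15, limma adjusted p = 0.994). The groups overlapped on both. ILMN_1229193 was above background on 2 knockout and 2 wild type arrays, and ILMN_2694960 on 3 knockout and 2 wild type arrays. The third probe, ILMN_2583410, read 779, 775 and 815 in knockout and 856, 939 and 947 in wild type mucosa, lower on every knockout array but under background on all 6, so it gives no fold and did not enter the fit.

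Moesin's usual cell types varied between arrays. Endothelial markers (9 genes) summed to 34607, 29734 and 22526 in knockout and 45074, 29195 and 16239 in wild type mucosa, with 5 of the genes above background on every array and 1 on none. The arrays ranked by this sum in the order they had for ILMN_1229193, from wild type replicate 1 at the top to wild type replicate 3 at the bottom, except that knockout replicate 2 and wild type replicate 2 changed places. The array medians before scaling to 1000 are not given and were estimated from the steps between dim values. These estimates followed the order of ILMN_1229193 without exception, at 61.4, 54.55 and 52.35 in knockout and 64, 58.5 and 50.75 in wild type mucosa. ILMN_2694960 did not follow that order: knockout replicate 2 was highest and knockout replicate 1, second by the endothelial sum, lay below knockout replicate 3. Leukocyte markers (11 genes, 7 of them above background on every array and 2 on none) summed to 47684, 44992 and 34463 in knockout and 39689, 29411 and 29859 in wild type mucosa. All 8 tested were above 0 (median log2 0.35, 0.22 after quantile normalization), as were 79.5% of named genes (median 0.12). Cd52 alone had knockout arrays all above wild type arrays, against 6.66% of named genes. It alone had an unadjusted limma p under 0.05, against 2.17% of named genes. The part of these cells, or of the array scale, in the moesin values was not tested. In whole mucosa, fewer cells of a type and less RNA per cell cannot be told apart.

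Merlin (Nf2), the FERM protein that acts upstream of the Hippo kinases, was not detectable at the precision of these arrays. Probe ILMN_1245990 read 772, 821 and 911 in knockout and 782, 850 and 833 in wild type mucosa. Probe ILMN_2611840 read 806, 724 and 859 in knockout and 694, 819 and 848 in wild type mucosa. Every value of both probes lay under the brightest Y-linked probe of its array, so no fold is given and neither entered the fit.

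**Figure D3:**
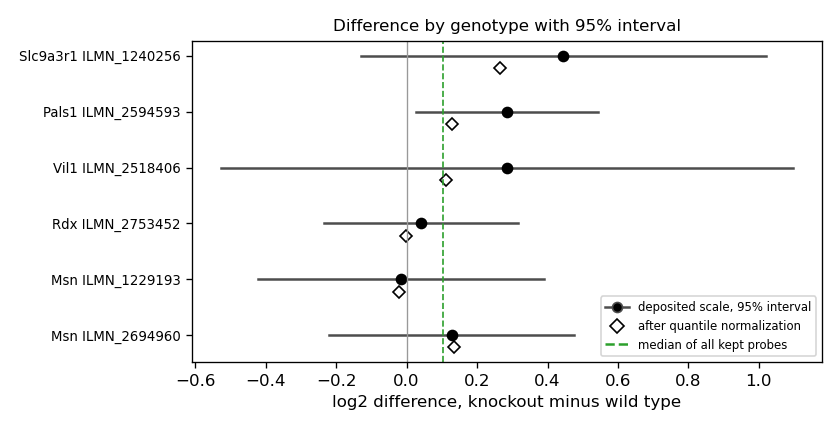
Log2 difference (x axis, knockout minus wild type) of the 6 tested member probes, with 95% intervals on the deposited scale (filled points) and the value after quantile normalization (open diamonds); the dashed line is the median of all tested probes (0.10). Only the Pals1 interval (0.03 to 0.54) lies above 0, and every interval except that of Slc9a3r1, Vil1 and Pals1 belongs to a probe around background.

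The genes that work with ERM proteins were read in 6 lists, with each gene given by its brightest tested probe. Of 90 such genes, 0 passed limma over all probes (adjusted p under 0.05; 0.00843% of 11868 named genes did), and 0 had an unadjusted p under 0.05, against 2.17% of named genes. Knockout arrays were all above wild type arrays for 4 of the 90 (4.44%), against 6.66% of named genes. The log2 difference was above 0 for 77 of the 90 (85.6%) and for 79.5% of all named genes, whose median was 0.12 on the deposited scale and 0.0030 after quantile normalization. Wild type replicate 3 gave the lowest of the 6 values for 74 of the 90 genes, or 82.2%. Without that array the list medians were -0.10 to 0.06 and that of all named genes was 0.0024.

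Microvillus core and linkage genes had the highest list median, 0.23 over 20 tested genes of 24 listed, with 19 above 0. After quantile normalization the median was 0.10 with 15 above 0, and on the deposited scale without wild type replicate 3 it was 0.0057. The 3 members of smallest p were Eps8l1, a relative of the actin-capping protein EPS8, at 0.35 (SE 0.15), Vill, a villin-like gene, at 0.65 (SE 0.36), and Cobl, the actin nucleator cordon-bleu, at 0.35 (SE 0.22), each with a limma adjusted p of 0.994. Vill read 12161, 16016 and 12868 in knockout and 11841, 11491 and 4742 in wild type mucosa. The groups did not overlap, with wild type replicate 3 far below the rest, and without that array the Vill difference was 0.22.

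Kinases and phosphatases that act on ERM proteins had a median of 0.22 (12 of 17 listed genes tested, all 12 above 0; 0.05 with 9 above 0 after quantile normalization; 0.06 on the deposited scale without wild type replicate 3). Slk, the STE20-like kinase that phosphorylates the ERM tail, read 58864, 56390 and 50187 in knockout and 50120, 47533 and 33498 in wild type mucosa. Its groups were separated by a narrow gap, and its log2 difference was 0.35 (SE 0.18, limma adjusted p = 0.994), or 0.17 without wild type replicate 3. The GTPase gene Rhoc was at 0.40 (SE 0.22) and the kinase gene Cdc42bpb at 0.38 (SE 0.22), both with overlapping groups.

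Merlin's partners in the Hippo pathway had a median of 0.16 (16 of 22 listed genes tested, 14 above 0; 0.01 after quantile normalization). The members of smallest p were Mob1b and Mob1a, coactivators of the LATS kinases, at 0.27 (SE 0.15) and 0.33 (SE 0.20), and Wwc2, a KIBRA relative, at 0.18 (SE 0.13). Genes of the Crumbs, Par and Scribble complexes, in which PALS1 acts, had a median of 0.12 (15 of 19 tested, 12 above 0; 0.01 after quantile normalization). Crb3, the epithelial Crumbs protein to which PALS1 binds, read 1536, 1560 and 1680 in knockout and 1366, 1520 and 1303 in wild type mucosa. Its groups did not overlap, by a small margin, at a log2 difference of 0.19 (SE 0.12, limma adjusted p = 0.994). Llgl2 was at 0.24 (SE 0.17) and Pard6b at 0.16 (SE 0.14), with overlapping groups. The Pard6b probe, at 1052 to 1412, lay around background, under the brightest Y-linked probe on wild type replicates 1 and 2.

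Membrane proteins and adaptors that bind ERM proteins or NHERF scaffolds had a median of 0.08 (15 of 19 listed genes tested, 11 above 0; -0.0077 after quantile normalization). Cftr, the chloride channel that binds NHERF1, had the smallest p of the list: it read 2103, 4328 and 1378 in knockout and 1818, 1749 and 1053 in wild type mucosa. Only knockout replicate 2 stood clearly above the others, the groups overlapped, and the log2 difference was 0.64 (SE 0.43, limma adjusted p = 0.994). Akap10 was at 0.25 (SE 0.18) and Spn, the leukocyte sialophorin gene, at -0.15 (SE 0.15) on a probe around background (987 to 1353). The remaining FERM genes, relatives of the red cell protein encoded by Epb41, had a median of 0.07 (12 of 22 tested, 9 above 0; -0.02 after quantile normalization), led by Epb41l1 at 0.40 (SE 0.26), Tln2 at 0.19 (SE 0.19) and Frmd4b at 0.23 (SE 0.31).

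**Figure D4:**
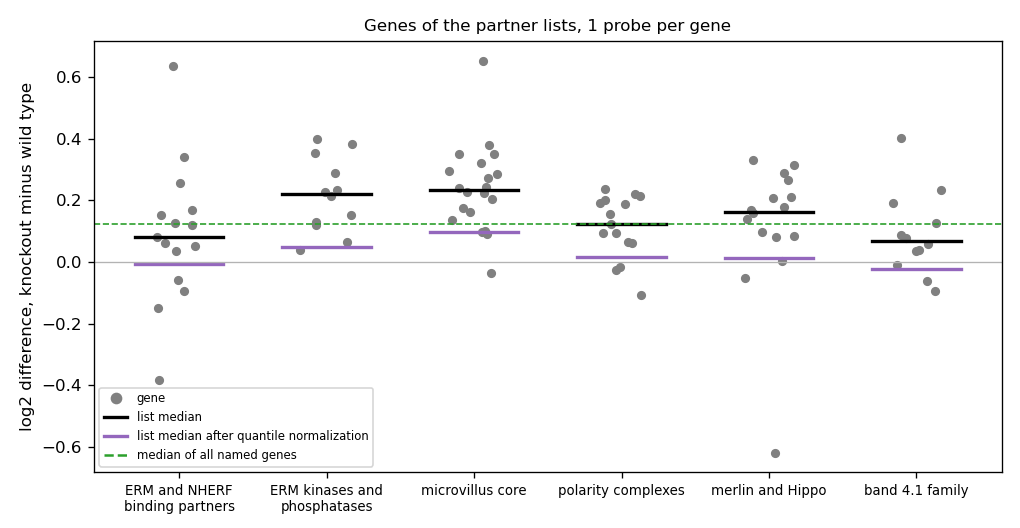
Log2 difference (y axis, knockout minus wild type) of the 90 tested genes of the 6 partner lists, 1 point per gene; black bars are list medians, purple bars the medians after quantile normalization, and the dashed line is the median of all named genes (0.12). The highest list medians, 0.23 for the microvillus core and 0.22 for ERM kinases and phosphatases, were 0.10 and 0.05 after quantile normalization.

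The named genes with the array pattern most like each member were found by the root mean square distance between log2 values centred on their mean, over the 6 arrays. For villin they were Ms4a8a (distance 0.12) and Avil, the advillin gene (0.12), against a range of 1.47 log2 units for Vil1 itself. Avil read 63170, 107986 and 73042 in knockout and 77261, 75003 and 48451 in wild type mucosa, so that knockout replicate 2 was highest and wild type replicate 3 and knockout replicate 1 were lowest, as for Vil1. For Slc9a3r1, which ranged over 1.12 log2 units, they were Abhd12 (0.04) and D8Ertd738e (0.05), and Abhd12 read 6688, 7260 and 7411 in knockout and 6940, 6230 and 3659 in wild type mucosa. The low value on wild type replicate 3 was shared by these genes and Slc9a3r1, and 67.3% of named genes were lowest on that array. All these genes, Avil included, were picked for likeness over the same 6 arrays, so a shared order follows from the choice and is no separate result. For Pals1, with a range of 0.37, they were Baz2a (0.03) and Gtf3c6 (0.03). The nearest to Msn were Ankmy2 and Hdlbp (0.02 each, Msn range 0.54), and the nearest to Rdx were Csmd3 (0.01) and Tbx2 (0.03), although Rdx itself ranged over no more than 0.23. The probes of Baz2a, Csmd3 and Tbx2 lay around background, above the brightest Y-linked probe on knockout replicate 1 alone.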

How the data were processed

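The values are the deposited intensity table: 1 linear probe intensity per array, which the authors scaled to a median of 1000, as the values show. The median of each array before scaling was estimated as the value that best put its dim intensities on steps of 0.05, a step that was assumed. The labels' protocols name biotin-labelled cRNA from an Ambion MessageAmp kit for Illumina arrays; the scanner, its background step and any filters have no entry in the sources used here. The number of arrays limits the precision, as does signal over background: 35.8% to 48.5% of probes per array lay above its brightest Y-linked probe, of 13.

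Probes were named from the platform annotation (34885 with 1 symbol, 18 with several, 10378 with none), and 34807 were matched to the GRCm38.p6 RefSeq gene table for current symbols. Promoter sequences are from RefSeq, GRCm38.p6. The source labels give each sample's genotype.

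Intensities floored at 16 were log2 transformed, and the 22640 probes with a mean log2 value over the 6 arrays above that of the median probe (an intensity of 991) were fitted in R 4.3.3 with limma 3.58.1 (lmFit, then eBayes). P-values are two-sided and Benjamini-Hochberg adjusted over all of them. Values of dimmer probes are given without a test. On simulated normal noise with the spread of these 22640 probes 41 of 100 probes given a 2-fold change and 85 of 100 given a 4-fold change were called, beside 5 false calls. That noise was independent between probes and held no array-wide shifts, unlike the arrays here. These shares therefore do not give the power of the real fit, in which Lasp1 did not pass at a log2 difference of -1.30. Every member probe is named, with Lasp1, the 3 genes of smallest p in each list, and the 2 genes nearest in pattern; some marker genes are given as sums. The members and lists were chosen with earlier results of these data known. Alternatives were other normalizations, backgrounds, filters, variance models, blocks, covariates, thresholds and sets of arrays. One was added after seeing the data, leaving out both arrays with squamous transcripts. Python 3.11.15 with matplotlib 3.10.9 drew the figures.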

Additional observations from a re-analysis of the deposited data

How the results depend on the processing

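Slc9a3r1 and Pals1 kept their direction under all 19 alternatives run for each (log2 0.16 to 0.62 and 0.13 to 0.33), and Slc9a3r1 never passed (adjusted p = 0.13 to 1). Pals1 passed only with array weights, where 1 member probe and 1816 of all probes passed (adjusted p = 0.0341 to 1 over the alternatives). Leaving out 1 array gave log2 ranges of -0.043 to 0.49 for Vil1, -0.016 to 0.10 for Rdx and -0.15 to 0.12 for Msn. Rdx also turned to -0.0019 after quantile normalization, -0.0027 after normexp and -0.014 without both arrays with squamous transcripts. Msn turned to 0.092 when title-number sets were blocked and 0.056 as the mean of its probes. The members' median was 0.047 with the squamous and pancreatic scores as covariates and 0.041 to 0.33 with 1 array left out. The 2 calls over all probes became 0 among the brightest 25% of probes or without both squamous arrays, 8 with the covariates, 34 without wild type replicate 3 and knockout replicate 1, and 0 to 3 with 1 array left out. The cause of these shifts was not tested.

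Whether the replicate numbers pair the samples is not known. Deviations of arrays with the same number from their group means correlated at 0.04, -0.30 and 0.53 over the tested probes. Arrays of different number were not compared, so these values cannot decide it. With the replicate number as a block 0 probes passed, and Pals1 stayed at 0.29 (limma adjusted p = 0.863). Depth limits Nf2, Rdx and Msn, whose probes lay at or near background.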
